A study of Mus musculus with 32 samples.

Results

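Cds1 and Ei24 are 2 of the 9030 genes named on a mouse cDNA array, and each was measured by 1 probe. Cds1 encodes CDP-diacylglycerol synthase 1 and Ei24 encodes a membrane protein of the endoplasmic reticulum. They were selected on their measured eye ratios, which were high and even over the arrays of sighted mice, so these ratios describe the choice and carry no test. They are described here in eye, brain and heart.

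The data came from 32 arrays with 2 colours. On each array, RNA of 1 sighted C3H sample was hybridised together with pooled RNA of the same organ from 6 control males, which the labels give as C3H.pde6b-. The design text calls the profiled animals 6 males of the mutant line C3H seh, and the labels give no age. Both sides of every ratio are therefore male C3H mice. Eye had 12 arrays, brain 12 and heart 8. C3H mice are known for a Pde6b mutation that destroys the rods of the retina, so that a control eye lacks most of these cells. The eye pool came from other mice than the brain and heart pools, whose labels list the same mice.

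A ratio array gives no level, only sighted over control RNA. Consecutive arrays carry the sighted RNA in Cy5 and then in Cy3. Each such pair was averaged to 1 replicate, which gave 6 replicates in eye, 6 in brain and up to 4 in heart. Which arrays come from 1 animal is not labelled, so p-values measure the spread between these replicates, part of which may be technical. The control RNA is 1 pooled sample per organ, and the tests leave out the spread between control animals. The number of arrays limits the precision. The direction of the deposited ratio is not stated. It is called likely because the median of 6 rod photoreceptor markers was positive as deposited on eye arrays that carried the sighted RNA in Cy5, at 4.84 to 5.57, and negative on those that carried it in Cy3, at -4.83 to -4.06. Were the ratio the other way round, every sign in the text would turn. In whole eyes, more cells of a type and more RNA per cell cannot be told apart.

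CDP-diacylglycerol synthases turn phosphatidic acid into CDP-diacylglycerol, from which cells make phosphatidylinositol, phosphatidylglycerol and cardiolipin. In the phosphoinositide cycle, phospholipase C splits a phosphorylated inositol lipid into diacylglycerol and an inositol phosphate, diacylglycerol kinase makes phosphatidic acid, and the synthase starts the rebuilding of the lipid. In the fly Drosophila, the enzyme made by the gene cdsA keeps this cycle running in photoreceptors, which use phospholipase C to detect light. Mouse rods use a different cascade, of transducin, a cGMP phosphodiesterase and a cGMP-gated channel. Ei24 was named as an etoposide-induced gene. It is known as a target of p53, and mice without it in neurons have defective autophagy.

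Both promoters are shown because both genes were chosen for a high ratio in eye. RefSeq places Cds1 on the plus strand of chromosome 5 and Ei24 on the minus strand of chromosome 9 in GRCm38.p6. The printed stretches are the 250 bases before each start, chr5:101764880-101765129 for Cds1 and chr9:36797335-36797584 for Ei24, each read 5′ to 3′ on the strand of its gene. Capitals mark the GC box core GGGCGG or its reverse complement CCGCCC, bound by SP factors.
Cds1: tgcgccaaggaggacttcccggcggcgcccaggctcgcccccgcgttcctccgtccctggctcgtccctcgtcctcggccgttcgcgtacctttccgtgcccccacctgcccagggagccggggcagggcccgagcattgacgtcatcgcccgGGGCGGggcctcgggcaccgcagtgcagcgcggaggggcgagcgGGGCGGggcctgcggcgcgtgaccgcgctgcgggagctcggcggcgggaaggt
Ei24: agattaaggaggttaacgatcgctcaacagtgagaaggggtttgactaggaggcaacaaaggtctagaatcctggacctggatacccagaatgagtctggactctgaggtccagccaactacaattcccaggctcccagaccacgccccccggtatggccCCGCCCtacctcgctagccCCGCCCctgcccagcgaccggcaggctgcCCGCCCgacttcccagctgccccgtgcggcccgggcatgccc
Both promoters were rich in G and C. Of the 300 bases that end 50 bases after the start, 79.0% were G or C in Cds1 and 66.3% in Ei24, against a median of 52.7% over 32851 RefSeq promoters of the same length. The GC box core had 3 matches in the 300 bases of Cds1 and 4 in those of Ei24, 2 and 3 of them in the printed stretches. It is common, since 35.7% of all promoters hold it on either strand. The other motifs searched on both strands had 0 matches in both promoters. These were TAATCC, the core bound by the rod and cone factor CRX, found in 7.06% of all promoters, and TGCTGA, a stretch bound by the rod factor NRL, found in 19.5%. They were also the nuclear receptor motif AAGGTCA, found in 4.72%, the E-box CACGTG, found in 7.15%, and the TATA box TATAAA, found in 13.6%. A match is a description of letters and not a bound site.

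In eye, Cds1 RNA was 5.70-fold higher in sighted than in control mice. Its 6 replicates had a lowest log2 ratio of 2.34, a median of 2.53 and a highest of 2.58, with a mean of 2.51 ± 0.087 (SD, n = 6). All 6 lay far above 0, and the lowest stood apart from the other 5, which lay between 2.51 and 2.58. As deposited, the 6 arrays with sighted RNA in Cy5 read 3.04, 2.87, 2.94, 2.61, 2.64 and 2.51. The 6 arrays with sighted RNA in Cy3 read -2.13, -2.17, -2.21, -2.45, -2.05 and -2.50. The deposited sign thus turned with the dye on every eye array.

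Ei24 RNA was 8.53-fold higher in sighted than in control eyes. Its 6 replicates had a lowest log2 ratio of 2.88, a median of 3.12 and a highest of 3.27, with a mean of 3.09 ± 0.15 (SD, n = 6). As deposited, the arrays with sighted RNA in Cy5 read 3.79, 3.79, 3.75, 3.40, 3.42 and 3.07, and those with sighted RNA in Cy3 read -2.74, -2.52, -2.65, -2.78, -2.51 and -2.69. The lowest replicate of Ei24 lay above the highest of Cds1, so the replicates of these genes did not overlap in eye. This is a difference between ratios and says nothing of which RNA is more abundant.

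The ratio was larger with sighted RNA in Cy5 than in Cy3 for both genes. For Cds1 it averaged 2.77 ± 0.21 in Cy5 and 2.25 ± 0.18 in Cy3, and for Ei24 3.54 ± 0.29 in Cy5 and 2.65 ± 0.11 in Cy3 (SD, n = 6 arrays each). For Cds1 the gap of 0.52 was close to the median gap of 0.50 over all 15874 features tested in eye. For Ei24 the gap was 0.89, and 90.9% of features had a smaller one. Over all features tested in 1 dye orientation alone, the median eye log2 ratio was 0.273 in Cy5 and -0.216 in Cy3. Calls in 1 orientation alone, given below, are to be read beside these medians. A feature is a named gene, or a probe without a name.

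**Figure D1:**
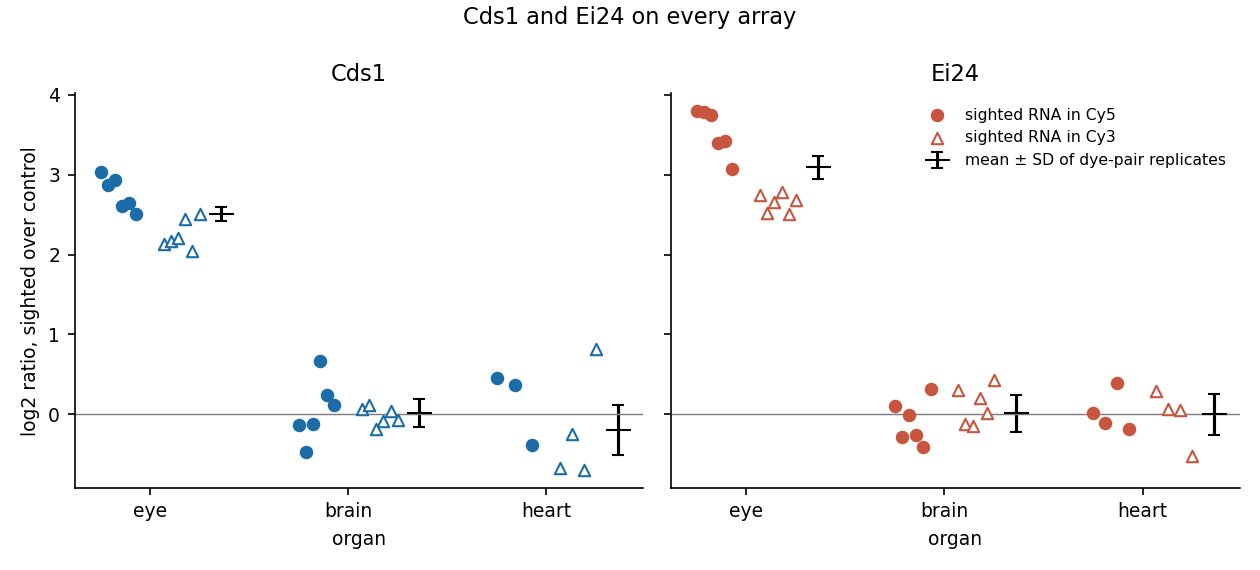
Log2 ratio of sighted over control RNA on every array for Cds1 and Ei24, by organ, after the sign of the arrays with sighted RNA in Cy3 was turned; each point is 1 array, filled for Cy5 and open for Cy3, and bars show the mean ± SD of the replicates. The eye arrays lie between 2.05 and 3.04 for Cds1 and between 2.51 and 3.79 for Ei24, and the brain and heart arrays lie on both sides of 0.

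In brain, neither gene differed detectably between sighted and control mice. Cds1 had log2 ratios of -0.037, -0.185, -0.15, 0.29, 0.14 and 0.018, with 3 replicates above 0 and 3 below. Their mean was 0.011 ± 0.18 (SD, n = 6), with a 95% interval of -0.16 to 0.18, which is 0.893 to 1.14-fold, and a limma adjusted p of 0.989. Ei24 had log2 ratios of 0.20, -0.201, -0.084, -0.028, -0.204 and 0.37, with 2 replicates above 0 and 4 below. Their mean was 0.0092 ± 0.23 (SD, n = 6), with a 95% interval of -0.20 to 0.21, which is 0.873 to 1.16-fold, and a limma adjusted p of 0.992. Of all 16112 features tested in brain, 0.00621% passed the threshold of an adjusted p under 0.05, so the 0 of 2 called here is close to the background. That is 1 feature, and 657 features had an unadjusted p under 0.05.

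In heart the replicates were fewer and spread more widely. Cds1 had log2 ratios of -0.11, 0.059 and -0.542, since 1 array of the other replicate gave no value. Their mean was -0.20 ± 0.31 (SD, n = 3), with a 95% interval of -0.70 to 0.30, which is 0.617 to 1.23-fold, and a limma adjusted p of 0.715. The Cds1 heart log2 ratio was -0.0275 without replicate 3 and -0.328 without replicate 2. The array of the incomplete replicate that gave a value, with sighted RNA in Cy3, read 0.815 after its sign was turned. Ei24 had log2 ratios of 0.15, -0.027, 0.22 and -0.358. Their mean was -0.0041 ± 0.26 (SD, n = 4), with a 95% interval of -0.38 to 0.37, which is 0.768 to 1.29-fold, and a limma adjusted p of 0.993. In heart 0% of 12755 features were called by limma, and 1042 had an unadjusted p under 0.05. A change of the size seen in eye lies outside each of these 4 intervals.

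Eye stood first in the order of ratios, for which the genes had been chosen. Brain and heart did not differ beyond their spread. For Cds1 brain minus heart was 0.21 (SE 0.17, 95% interval -0.16 to 0.58, limma adjusted p 0.538), 0.038 without heart replicate 3 and 0.338 without heart replicate 2. For Ei24 it was 0.013 (SE 0.16, 95% interval -0.33 to 0.36, limma adjusted p 0.974). Of 12688 features, 0 were called in this difference. As a description, the eye mean exceeded the brain mean by 2.50 for Cds1 and 3.08 for Ei24 on the log2 scale, and the heart mean by 2.71 and 3.10. The lowest eye replicate exceeded the highest brain replicate by 2.06 for Cds1 and 2.51 for Ei24, and the highest heart replicate by 2.29 and 2.66.

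Within the eye, Cds1 ranked 38 and Ei24 ranked 23 of 15874 features by mean log2 ratio, and 21 and 12 of 8561 named genes. Next to Ei24 in this order stood Cplx4, a complexin of photoreceptor synapses, with 3.34 ± 0.13, and Unc119, a carrier of lipid-modified proteins in photoreceptors, with 2.86 ± 0.14. Next to Cds1 stood Susd3, with 2.59 ± 0.39, and Faim, an inhibitor of apoptosis, with 2.47 ± 0.33 (SD, n = 6 each). The replicates of Cds1 were close together even for a gene this high. Of the 75 features with a mean of 2 or more, 1 had a smaller SD than Cds1 and 13 had a smaller SD than Ei24, and the median SD was 0.206. Evenness was part of how the genes were chosen, so these ranks describe the choice.

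**Figure D2:**
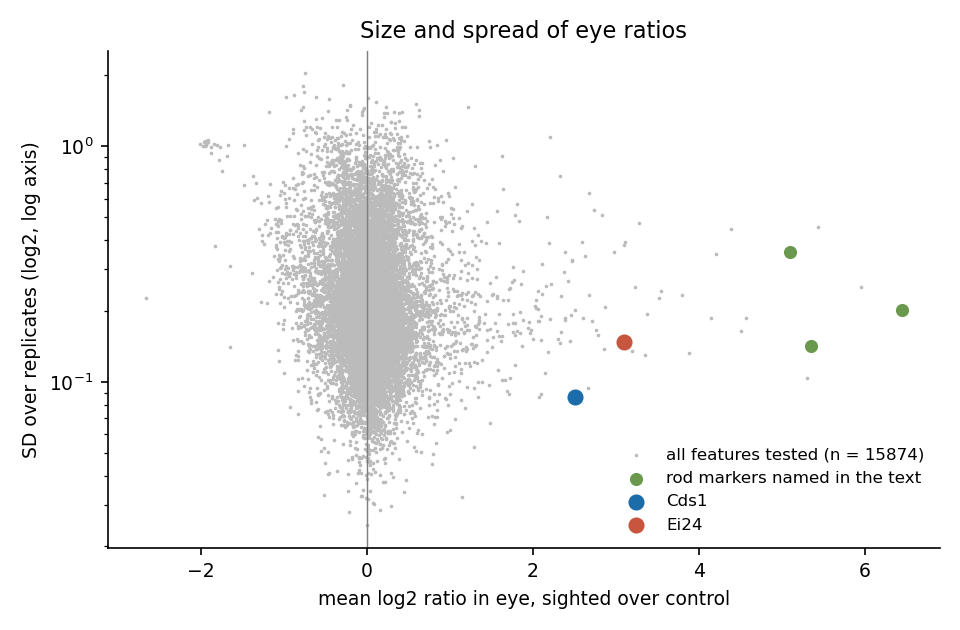
Mean log2 ratio in eye on the horizontal axis against the SD over replicates on the vertical axis, with every feature tested in eye as a grey point and Cds1, Ei24 and 3 rod markers in colour; the SD axis is logarithmic. Cds1 lies at 2.51 with an SD of 0.087 and Ei24 at 3.09 with an SD of 0.15, at the high end of the ratios and near the low end of the SDs there.

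Cds2 on chromosome 2, another CDP-diacylglycerol synthase gene, did not pass in eye. Its log2 ratio there was 0.045 ± 0.12 (SD, n = 6, limma adjusted p 0.656), with 4 replicates above 0 and 2 below. Its 3 probes lay between -0.13 and 0.22. In brain it was -0.023 ± 0.065 (SD, n = 6) and in heart 0.16 ± 0.60 (SD, n = 3).

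A list of 15 tested genes held enzymes that make phosphoinositides or cardiolipin, Inpp1, and the lipid transfer proteins Pitpna, Pitpnb, Pitpnc1 and Pitpnm2. None of these transfer proteins passed. Of the 15, 6 were higher, 0 lower and 9 did not pass, with a median log2 ratio of 0.10. The 40.0% called compares with 26.8% of all features in eye, whose median was 0.027. Pip4k2c, a phosphatidylinositol phosphate kinase, rose by 0.82 ± 0.12 (limma adjusted p 5.31e-05). Pi4ka, the kinase that starts the path to phosphatidylinositol bisphosphate at the plasma membrane, rose by 0.25 ± 0.12 (limma adjusted p 0.0204). Crls1, the cardiolipin synthase, which uses CDP-diacylglycerol, rose by 0.24 ± 0.14 (limma adjusted p 0.0327). Inpp1, an inositol phosphatase that returns inositol to the cycle, rose by 0.39 ± 0.078 (limma adjusted p 0.00139; all SD, n = 6). The mean of Inpp1 was -0.013 over the arrays with sighted RNA in Cy3 alone, against a median of -0.216 over all features there. Pi4ka and Crls1 did not pass in that orientation. The count of 6 higher genes became 3 without replicate 1 or 4 and 2 without replicate 3, 5 or 6, and Pi4ka and Crls1 lost their calls in most of these fits.

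Genes of the steps before the synthase went both ways. The list of 14 tested genes held phospholipases C, diacylglycerol kinases and the G protein subunits Gnaq and Gna11, which activate phospholipase C beta and did not pass. Of the 14, 2 were higher, 4 lower and 8 did not pass, with a median of -0.19 and 42.9% called, against 26.8% of all features. Dgke, the diacylglycerol kinase that prefers the arachidonoyl form found in phosphoinositides, rose by 1.35 ± 0.33, which is 2.55-fold (limma adjusted p 0.000108). Dgka, another diacylglycerol kinase, fell by 0.711 ± 0.21 (limma adjusted p 0.000559), and Plcb3, a phospholipase C beta, fell by 0.635 ± 0.11 (limma adjusted p 0.000203; all SD, n = 6). Plch2, a phospholipase C eta, averaged 0.72 ± 0.66 (SD, n = 6, limma adjusted p 0.0419), but its 2 probes disagreed, at -0.63 and 1.19, and it passed in 1 of the 6 fits that each left out a replicate, the one without replicate 2. Dgka did not pass with sighted RNA in Cy5 alone. Of 13 tested phosphoinositide phosphatases, 2 were higher, 0 lower and 11 did not pass, with a median of 0.093 and 15.4% called, against 26.8% of all features. They were Mtmr1, a myotubularin, at 0.60 ± 0.11 (limma adjusted p 0.000262), and Inpp5b, an inositol polyphosphate 5-phosphatase, at 0.23 ± 0.14 (limma adjusted p 0.0354; SD, n = 6 each). Inpp5b, too, passed in 1 of the 6 fits that each left out a replicate, the one without replicate 2.

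Of 33 tested autophagy genes, the list closest to Ei24, 10 were higher, 2 lower and 21 did not pass, with a median log2 ratio of 0.069 and 36.4% called. Of all features in eye 26.8% were called, 15.9% higher and 11.0% lower. Atg16l1, part of the complex that attaches ATG8 proteins to the growing autophagosome membrane, rose by 0.59 ± 0.13 (limma adjusted p 0.000357). Gabarapl1, an ATG8 protein, rose by 0.38 ± 0.19 (limma adjusted p 0.00848). Uvrag, a partner of Beclin, rose by 0.36 ± 0.20 (limma adjusted p 0.0131), and Atg4b, the protease that processes ATG8 proteins, rose by 0.34 ± 0.14 (limma adjusted p 0.00731; all SD, n = 6). The highest mean of this list, that of Atg16l1, was far below the eye ratio of Ei24. None of these 4 genes passed with sighted RNA in Cy3 alone. The count of 10 higher genes became 5 without replicate 1, 5 or 6, and the count of 2 lower genes became 1 without replicate 1, 2, 3, 4 or 5.

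The other targets of p53 went in both directions. Of 14 tested genes, 3 were higher, 4 lower and 7 did not pass, with a median of 0.024 and 50.0% called, against 26.8% of all features. Cdkn1a, the cell cycle inhibitor p21, fell by 0.617 ± 0.14 (limma adjusted p 0.000347). Phlda3, an inhibitor of Akt signalling, fell by 0.57 ± 0.090 (limma adjusted p 0.000251). Perp, a junction protein of epithelia that is also on the cornea list, fell by 0.915 ± 0.39 (limma adjusted p 0.00163). Ccng1, cyclin G1, rose by 0.40 ± 0.20 (limma adjusted p 0.00836; all SD, n = 6). Of 17 tested genes of the endoplasmic reticulum stress response, 2 were higher, 1 lower and 14 did not pass, with a median of 0.11 and 17.6% called, below that share of all features. Atf4, a transcription factor of that response, rose by 0.51 ± 0.15 (limma adjusted p 0.0011), and Hsp90b1, a chaperone of the endoplasmic reticulum, rose by 0.47 ± 0.14 (limma adjusted p 0.00149). Dnajc3, a co-chaperone there, fell by 0.269 ± 0.17 (limma adjusted p 0.0281; all SD, n = 6). With sighted RNA in Cy3 alone Ccng1, Atf4 and Hsp90b1 did not pass, and Dnajc3 kept its call in 1 of the 6 fits that each left out a replicate, the one without replicate 6. No gene of the 6 pathway lists was called by limma in brain or heart, where 1 of 16112 and 0 of 12755 features were called.

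**Figure D3:**
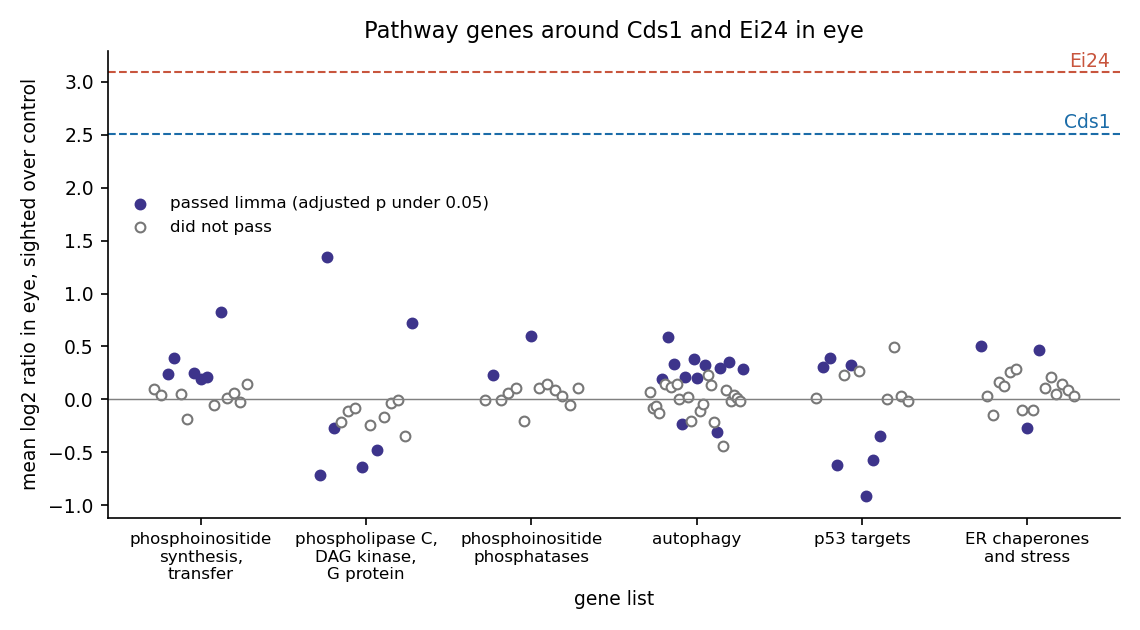
Mean log2 ratio in eye of each tested gene of the 6 pathway lists, 1 column per list, with the means of Cds1 and Ei24 as dashed lines; filled points passed limma at an adjusted p under 0.05 and open points did not. The list genes lie between -0.92 and 1.35, below both chosen genes.

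Markers of eye cells differed together with Cds1 and Ei24 on the same arrays, on which 15.9% of all features were called higher and 11.0% lower. All 6 tested rod markers were higher in sighted eyes, at 3.88 to 6.45 on the log2 scale with a median of 4.84, and their median in a replicate lay between 4.60 and 5.11. The direction of the ratio was read from these same markers, so their sign is no separate result. The rod genes Guca1b, a guanylate cyclase activator, Sag, the arrestin of rods, and Cngb1, a subunit of the cGMP-gated channel, averaged 6.45 ± 0.20, 5.35 ± 0.14 and 5.10 ± 0.36 (SD, n = 6 each). Cds1 and Ei24 thus lay below the lowest rod marker. All 3 cone markers were higher, at 0.26 to 0.48, none of 3 bipolar cell markers passed, and 2 of 8 Müller glia markers were lower, among them Gfap, at -0.449 ± 0.20 (SD, n = 6, limma adjusted p 0.00455). With sighted RNA in Cy3 alone, the cone means were -0.032 for Gnb3 and -0.039 for Gngt2, against a median of -0.216 over all features. Gfap did not pass with sighted RNA in Cy5 alone. Thrb, the highest cone marker at 0.48 ± 0.15 (SD, n = 6, limma adjusted p 0.00146), did not pass in Cy3 alone.

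Markers outside the retina differed as well, beside 15.9% of all features called higher and 11.0% lower in eye. Of 12 lens markers, 11 were higher and 1 was lower, and their median in a replicate ranged from 0.062 to 0.89. All 10 cornea markers were lower, with a median in a replicate of -1.72 to -0.76, and of 10 skeletal muscle markers 9 were lower and 1 was higher, with a median in a replicate of -1.29 to -0.51. Of 3 pigment epithelium markers, 1 was higher, Rdh5, at 0.26 ± 0.15 (SD, n = 6, limma adjusted p 0.0226). Its mean was -0.012 in Cy3 alone, where the median of all features was -0.216. It had no call without replicate 1, 3, 4, 5 or 6. The part of these cells in the ratios of Cds1 and Ei24 was not tested. None of these markers was called in brain or heart, where 0.00621% and 0% of all features were called.

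Cds1 lies on the same chromosome as Pde6b, the gene mutated in the control mice. In RefSeq order, 144 genes lie between them, of which 58 code for proteins. No probe was named for Pde6b, and the DNA of this stretch in the sighted line was not analysed here. Of the 18 genes between them tested in eye, 4 were higher and 3 lower, which is 38.9% against 26.8% of all features, with a median log2 ratio of 0.012. Glmn, glomulin, a regulator of ubiquitin ligases, was the highest of them. Its 6 eye replicates read 2.11, 1.90, 1.78, 1.95, 2.13 and 2.16, with a mean of 2.00 ± 0.15 (SD, n = 6), which is 4.01-fold (limma adjusted p 5.85e-07). In brain Glmn was -0.004 ± 0.12 (SD, n = 6) and in heart -0.64 ± 0.58 (SD, n = 4). Others in this stretch were Zfp644, a zinc finger protein, at 1.05 ± 0.21 (SD, n = 5, limma adjusted p 0.000212), and Aff1, a subunit of the super elongation complex, at 0.67 ± 0.21 (SD, n = 6, limma adjusted p 0.000707). Hsd17b11, a steroid dehydrogenase found on lipid droplets, fell by 0.631 ± 0.40 (SD, n = 6, limma adjusted p 0.0101). Aff1 did not pass with sighted RNA in Cy3 alone, nor Hsd17b11 in Cy5 alone. The 3 lower genes became 1 without replicate 1, 4, 5 or 6, and 2 without replicate 2.

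Over the 40 measured genes nearest to Cds1, 20 on each side, 6 were higher and 6 lower, or 30.0%, against 26.8% of all features in eye. These 40 include the 18 tested genes between Cds1 and Pde6b, which hold 7 of the 12 calls. The 6 lower genes became 4 without replicate 2, 3 without replicate 1, 3 or 6 and 2 without replicate 4 or 5. On the side away from Pde6b lay Plac8, which fell by 0.895 ± 0.66 (SD, n = 6, limma adjusted p 0.0172), with no call without replicate 3 or 5. Over the 40 nearest to Ei24 on chromosome 9, 3 were higher and 5 lower, or 20.0%, against the same 26.8% of all features. They included St14, the epithelial protease matriptase, which fell by 0.768 ± 0.27 (limma adjusted p 0.000931), and Sorl1, a sorting receptor, which fell by 0.48 ± 0.16 (limma adjusted p 0.00163). Stt3a, a subunit of the oligosaccharyltransferase of the endoplasmic reticulum, fell by 0.458 ± 0.31 (limma adjusted p 0.0162). Zbtb44, a zinc finger protein, rose by 0.49 ± 0.14 (limma adjusted p 0.00107; all SD, n = 6). Gramd1b, a cholesterol transporter, averaged 0.61 ± 0.19 (SD, n = 6, limma adjusted p 0.000921), with its 2 probes at 0.017 and 1.20. The genes named near Ei24 that fell did not pass with sighted RNA in Cy5 alone, and those that rose did not pass in Cy3 alone. Stt3a lost its call without replicate 1. No gene among the 40 nearest of either was called in brain or heart, where 0.00621% and 0% of all features were called. Farther out, within 40 genes on either side of Ei24, stood other high ratios, in genes named after their values were seen. Glb1l2 and Bbs9 reached the ratio of Glmn near Cds1, and Trappc4 lay below it. Glb1l2 was at 2.67 ± 0.64 (SD, n = 5, limma adjusted p 0.000176), Bbs9, a subunit of the ciliary BBSome, at 2.07 ± 0.18 (SD, n = 6, limma adjusted p 7.72e-07), and Trappc4 at 1.30 ± 0.17 (SD, n = 6, limma adjusted p 9.73e-06).

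**Figure D4:**
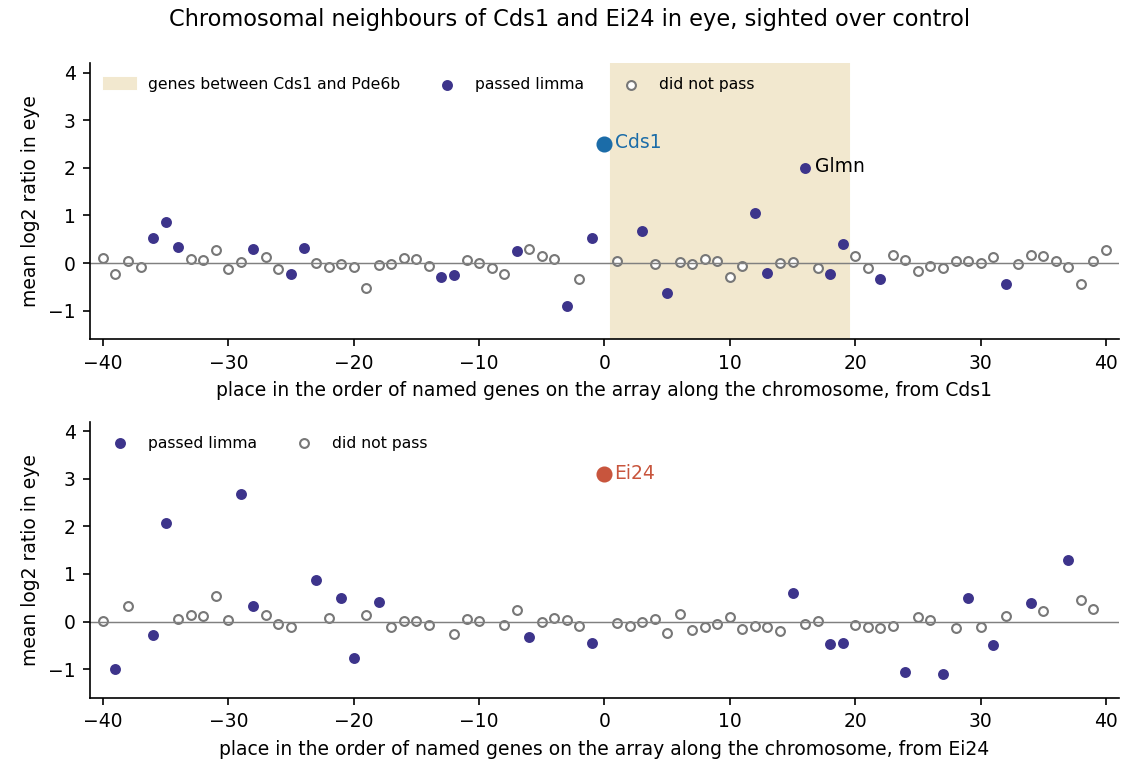
Mean log2 ratio in eye of up to 40 measured genes on each side of Cds1 (upper panel) and Ei24 (lower panel), in RefSeq order along the chromosome; filled points passed limma at an adjusted p under 0.05, open points did not, and shading marks the genes between Cds1 and Pde6b. In the shaded stretch Glmn lies highest at 2.00, and in the lower panel Glb1l2 at 2.67 and Bbs9 at 2.07 lie highest next to Ei24, both more than 20 genes away.

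The genes whose ratios were most like those of Cds1 over all 15 replicates measured, among 6632 named genes, were Elfn1, Ccdc126, Susd3, Fam3c and Rpgrip1. Their root mean square distance from Cds1 was 0.297, 0.298, 0.327, 0.328 and 0.334 on the log2 scale. Elfn1 is a synaptic adhesion protein of rods, and Rpgrip1 is a protein of the photoreceptor connecting cilium. The eye means were 2.33 ± 0.16 for Elfn1, 2.75 ± 0.17 for Ccdc126, 2.06 ± 0.18 for Fam3c and 2.78 ± 0.16 for Rpgrip1 (SD, n = 6 each). The highest Pearson correlations with Cds1 were those of Guca1b, 0.994, Cngb1, 0.993, Gnb5, 0.989, Fam3c, 0.989, and Sag, 0.988. Gnb5 is a G protein beta subunit that helps to end the light response.

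For Ei24, over 16 replicates and 4080 named genes, the nearest by distance were Susd3, Rpgrip1, Tma7, Ccdc126 and Kpna2, at 0.436, 0.535, 0.60, 0.67 and 0.691. A gene was compared only if it had a value in every replicate of the member. Sag and Cngb1, with 3 heart replicates each, were therefore not compared with Ei24, and the lists of the 2 members cover different genes. Kpna2 is an importin of the nuclear import machinery. The highest correlations were those of Guca1b, 0.988, Ndrg3, 0.985, Ptp4a3, 0.985, Slc16a6, 0.984, and Tma7, 0.983. Susd3, Rpgrip1 and Ccdc126 were on both lists by distance, and Guca1b on both by correlation. These values are a description over replicates that share arrays and control pools, and the gap between eye and the other organs makes any gene that is high in eye alone correlate. The probes of some of these genes disagreed in eye, with 4 probes of Rpgrip1 between 0.80 and 3.48 and 2 of Ccdc126 at 2.04 and 3.47.

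**Figure D5:**
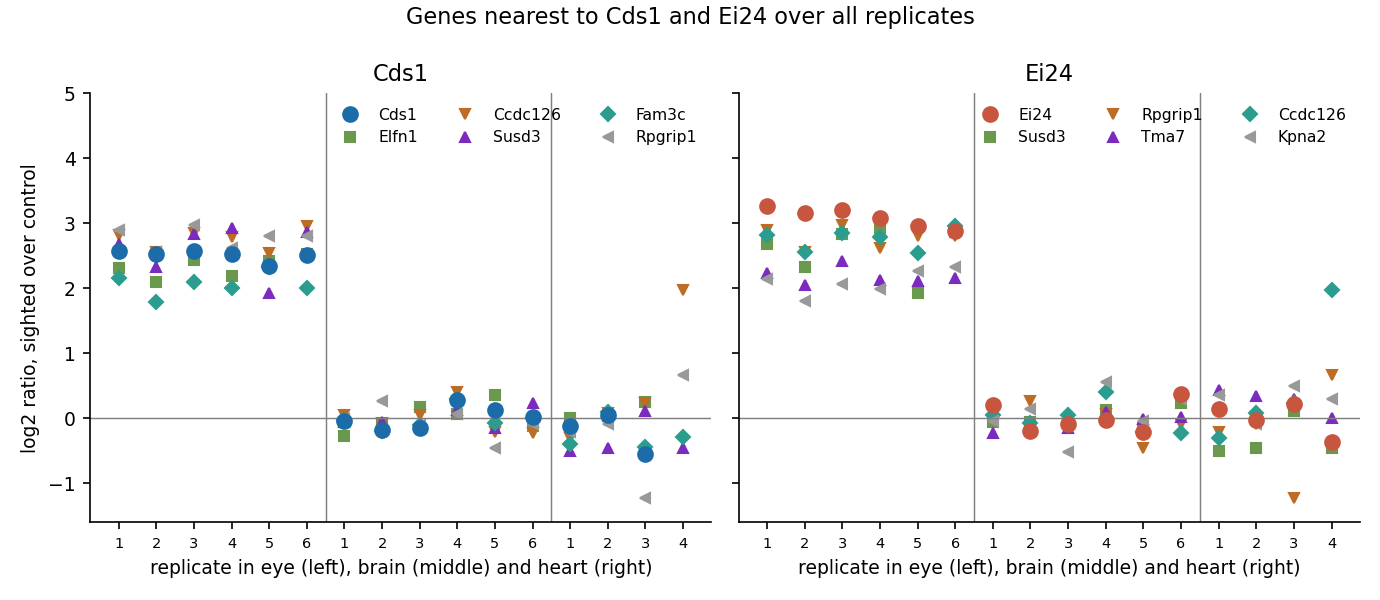
Log2 ratio of sighted over control RNA in every replicate of eye, brain and heart for Cds1 and Ei24 and, in each panel, the 5 named genes at the smallest root mean square distance. Points of the eye replicates lie near 2 to 3, those of brain near 0, and 1 heart replicate of Ccdc126 lies at 1.97.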

How the data were processed

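The measurement was the ratio of RNA from eye, brain or heart of sighted C3H mice to pooled control RNA on 2-colour cDNA arrays. Per the labels' protocols, cDNA made from total RNA carried Cy3 or Cy5 by indirect labelling. The deposited values are log2 ratios, read as Cy5 over Cy3. What scanner, background correction or normalization made them is not given in the sources used here. Not all arrays were centred, with medians of -0.061 to 0.535 in eye, 0.002 to 0.1 in brain and 0.034 to 0.217 in heart. Missing values made up 1.62 to 5.10% of an eye array, 1.01 to 5.05% of a brain array and 5.96 to 61.58% of a heart array.

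The labels put Cy5 on both channels of brain array 3, whose sighted RNA was taken to be in Cy5, and the group of brain array 5 came from its title. The 4170 values at a repeated top value above 15, which is 16.61 on every eye array, were set missing. Of 20794 probes, 12771 carried 1 symbol in the platform annotation, 0 several and 8023 none. RefSeq GRCm38.p6 gave gene order and promoters, and both members matched it. Probes of a gene were averaged. A replicate needed both of its arrays, and a gene could miss 1 replicate.

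The mean of each organ was tested against 0, two-sided, with limma 3.58.1 (R 4.3.3) and Benjamini-Hochberg adjustment over all features at 0.05. The brain minus heart difference was fitted to both organs together. It does not model their shared control mice. Simulated data with known changes were used to check the scripts. At a log2 change of 2, 100% were recovered in eye and brain and 74% in heart. Heart recovered 16% at 1 and 34% at -1, against 88 to 96% in eye and brain. For brain minus heart, 200 features were given a log2 change of 2. The spread shared by both organs, as reported, recovered 96% with 81 false calls. The own spread of each organ gave 89% with 28, and the replicate block 86.5% with 2. The members and gene lists were chosen with earlier results of these data known. Genes were named by size of change among called genes, up to 4 per pathway list, 3 per marker list and 5 per neighbourhood, and 5 by each measure of likeness. Alternatives were every array on its own, arrays centred or scaled, another handling of missing values, a single dye orientation, single probes and a spread filter. Others were each replicate left out and, for brain minus heart, a replicate block or the own spread of each organ.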

Additional observations from a re-analysis of the deposited data

Results flagged for a closer look

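Chance flags about 1 in 20 groups of replicates, and 7 of the 66 groups examined held a replicate far from the other 5. In each of the 7 it was the lowest of 6 eye replicates, which is no comparison of the organs. For Cds1 the lowest eye replicate was 2.344, against 2.51 to 2.58 in the others. For Atg16l1 it was 0.352, against 0.58 to 0.69, and for Dnajc3 it was -0.592, against -0.322 to -0.16.

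The other 4 were 2 cornea markers and 2 neighbours of Ei24. The lowest replicate was -2.482 for Krt12, a cornea keratin, against -1.40 to -0.84 in the others, and -2.149 for Aldh3a1, an aldehyde dehydrogenase abundant in cornea, against -1.34 to -0.924. For St14 it was -1.286, against -0.79 to -0.53, and for Sorl1 it was -0.784, against -0.494 to -0.37. Replicate 1 gave the lowest value of Krt12, Aldh3a1 and St14, replicate 5 that of Cds1 and Dnajc3, replicate 2 that of Atg16l1 and replicate 3 that of Sorl1. What sets these replicates apart was not tested.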

How the results depend on the processing

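Neither Cds1 nor Ei24 was called in brain, in heart or in the difference of brain minus heart under any of the alternatives run. Their limma adjusted p ranged from 0.885 to 0.9998 for Cds1 and from 0.548 to 0.9998 for Ei24 in brain, from 0.633 to 0.976 and from 0.772 to 0.999 in heart, and from 0.322 to 0.931 and from 0.730 to 0.989 for the difference. Means this close to 0 changed sign easily. With scaled arrays, the Cds1 brain log2 ratio was -0.0060, the Ei24 heart log2 ratio was 0.037 and Ei24 brain minus heart was -0.024, and with centred arrays Ei24 was 0.0015 in heart. With sighted RNA in Cy5 alone, Cds1 was 0.143 in heart and -0.100 in the difference, and Ei24 was -0.093 in brain, 0.024 in heart and -0.117 in the difference. In Cy3 alone Cds1 was -0.022 in brain. With 1 replicate left out, Cds1 ranged from -0.045 to 0.050 in brain. The Cds1 heart log2 ratio then ranged from -0.328 without replicate 2 to -0.0275 without replicate 3, and Cds1 brain minus heart from 0.038 without heart replicate 3 to 0.338 without heart replicate 2. Ei24 ranged from -0.063 to 0.052 in brain, -0.079 to 0.11 in heart and -0.105 to 0.088 in the difference. Complete replicates gave no heart value for Cds1.

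With the replicate block, in which the replicate number is a term of the fit, Cds1 brain minus heart was 0.074 (limma adjusted p 0.918) and Ei24 brain minus heart was -0.024 (limma adjusted p 0.971). Same-numbered brain and heart replicates correlated between -0.023 and -0.0063 after their organ means were removed. The arrays averaged to a replicate had a mean correlation of 0.0057 in brain and -0.042 in heart. With values this low within a replicate, the check cannot tell whether the numbers pair the samples.

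The eye ratio was 2.77 in Cy5 alone and 2.25 in Cy3 alone for Cds1, and 3.54 and 2.65 for Ei24. In these settings Cds1 eye minus brain was 2.725 and 2.27, Ei24 eye minus brain was 3.63 and 2.54, and Ei24 eye minus heart was 3.51 and 2.68. The 4259 calls in eye, 2520 higher and 1739 lower, became 6072 higher and 508 lower in Cy5 alone, 553 higher and 3394 lower in Cy3 alone and 2654 in all with every array on its own. The median of all features in eye was 0.273 in Cy5 alone and -0.216 in Cy3 alone. In Cy3 alone Inpp1 was -0.013, Gnb3 -0.032, Gngt2 -0.039, Rdh5 -0.012 and Cds2 -0.219. In brain, calls numbered 736 in Cy5 alone and 1327 in Cy3 alone.

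The counts on the gene lists in eye moved more. With every array on its own, the higher calls were 2 in phosphoinositide synthesis and transfer, 1 among the phosphatases and 4 in autophagy. The lower calls were then 0 in autophagy, 0 in endoplasmic reticulum stress, 2 near Cds1 and 1 between Cds1 and Pde6b. With centred arrays, the lower calls were 1 in phosphoinositide synthesis and transfer, 1 among the phosphatases, 4 in autophagy, 2 in endoplasmic reticulum stress and 8 near Ei24. With the repeated top values kept, the phospholipase C list had 1 higher call, the phosphatases 1 lower and autophagy 1 lower, and complete replicates gave the phosphatases 1 lower call. With 1 replicate left out, the higher calls ranged from 2 to 6 in synthesis and transfer, 1 to 2 in the phospholipase C list, 1 to 3 among the phosphatases and 5 to 9 in autophagy. The lower calls ranged from 1 to 2 in autophagy, 0 to 1 in endoplasmic reticulum stress, 2 to 4 near Cds1 and 1 to 3 between Cds1 and Pde6b. The cause of these shifts was not tested.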
